A study of Mus musculus with 6 samples.

Results

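TGF-beta is a cytokine that restrains T cell proliferation and effector function, and it reaches the nucleus through a short relay. The ligand binds a type II receptor, which activates a type I receptor, and the type I receptor phosphorylates the receptor-regulated Smads, Smad2 and Smad3, which enter the nucleus with the common partner Smad4. Inhibitors act at each step, among them the inhibitory Smad7, the ubiquitin ligase Smurf2 and the nuclear corepressors Ski and Skil (SnoN). Runx proteins are known to bind receptor-regulated Smads and to act with them at some TGF-beta target genes. The 10 genes described here are this relay: the ligand gene Tgfb1, the receptor genes Tgfbr1 and Tgfbr2, Smad2, Smad3, Smad4, and the inhibitor genes Smad7, Smurf2, Ski and Skil. They were chosen by name, with earlier results of these data known, and all 10 were among the 9924 genes tested.

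Expression was measured in resting CD8+ T cells (CD8-TC), taken fresh from the spleen, of 6 male mice of the outbred ICR stock aged 6 weeks. There were 3 Runx3-/- mice, which lack the transcription factor Runx3, and 3 WT (Runx3 +/+) mice, with 1 array per mouse. Cells of both genotypes were positively selected with anti-CD8 magnetic beads. Only for Runx3-/- cells do the protocol and the methods describe an added FACS sort against CD11c+CD8+ dendritic cells, although another label speaks of sorting for every sample, so that this step and the genotype cannot be told apart. Values are RMA signals on the log2 scale of Affymetrix arrays that read whole transcripts, and a difference is Runx3-/- minus WT in log2 units, so that 1 unit is a doubling.

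The correlation over the genes tested was at least 0.985 between arrays that shared a genotype and at most 0.971 between the genotypes. The array medians were 3.45 to 3.53, and the core pathway genes read 5.87 to 8.80, well above them. The Runx3 probe set did not separate the genotypes (7.06, 7.17 and 7.64 in Runx3-/- arrays against 7.09, 7.30 and 6.99 in WT arrays). Its place relative to the disrupted part of the gene was not analysed here, so that it did not serve as a check of the labels. The marker lists differed in opposite ways. The list of CD8 T cell markers held Cd8a and Cd8b1 beside genes that T cells share, so its sum does not measure CD8 T cells alone. It had a summed linear signal of 10111 to 11901 in Runx3-/- arrays against 9268 to 11112 in WT arrays. Of its 10 tested genes, 1 was called higher and 0 lower. All 8 tested CD4 and regulatory T cell markers were higher (summed signal 675 to 768 in Runx3-/- against 231 to 240 in WT, with Cd40lg below the array medians throughout), whereas 11 of 11 B cell markers (225 to 293 against 1170 to 1822) and 16 of 16 macrophage and monocyte markers (337 to 595 against 2893 to 2976) were lower in Runx3-/- arrays. Of the tested erythroid markers, 1 of 9 was higher and 6 were lower (122 to 127 in Runx3-/- against 353 to 572 in WT, Klf1 and Tspo2 below the array medians throughout). Of the dendritic cell markers, 4 of 13 were lower (2699 to 4925 in Runx3-/- against 4845 to 8397 in WT, Zbtb46 below). That sum rests largely on Cd74, H2-Aa and H2-Eb1 (WT means 10.97, 10.59 and 10.20), which B cells share and which were not called. Itgax, Flt3, Clec9a, Xcr1 and Siglech were also without a call, so the list does not measure dendritic cells alone. Of the natural killer cell markers, 1 of 7 was higher and 4 were lower (631 to 1153 in Runx3-/- against 1866 to 1995 in WT, Ncr1, Klrb1c and Klra8 below). The natural killer sum rests largely on Nkg7 (WT mean 10.5), which CD8 T cells also express, so it does not measure natural killer cells alone. The platelet gene Ppbp, the 1 of its list tested, was lower (list sum 58.0 to 60.9 in Runx3-/- against 70.8 to 83.8 in WT, with Pf4, Itga2b, Gp5, Gp9, Treml1 and Clec1b below). Of the called markers, 3 CD4 and regulatory T cell genes and 1 erythroid gene were tested only through Runx3-/- arrays, and 2 B cell, 1 macrophage, 4 erythroid and the platelet gene only through WT arrays. In such bulk samples a change in the number of cells of a type and in RNA per cell cannot be told apart. Nor can either be told apart from changed expression of a marker in the CD8 T cells themselves. The part these cell types had in the results below was not tested. The paper also names Cd4 among genes earlier reported as affected by loss of Runx3 in developing CD8-TC, and it reports higher Cd4 in its own Runx3-/- cells. The value of Cd4 alone therefore does not mark CD4 T cells.

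The first question was which steps of the relay differed in level when Runx3 was missing. The gene for 1 of the receptor-regulated Smads, Smad3, was higher in Runx3-/- CD8-TC, and no other core gene passed the test. Over all 9924 genes, limma with Benjamini-Hochberg adjustment called 11.6%, with 5.63% higher and 6% lower, against 1 of 10 core genes higher and 0 lower, a share near that of all genes. The core genes had a median difference of 0.08, beside 0.01 for all genes tested, and a median absolute difference of 0.11, beside 0.16 for all genes tested. The groups did not overlap for 2 of the 10, Smad3 and Ski, whereas they did not overlap for 33.6% of all genes. By a change of 1.5-fold with an unadjusted p under 0.05, the study's stated rule, 1 of 10 core genes (Smad3) and 8.07% of all genes were called.

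**Figure D1:**
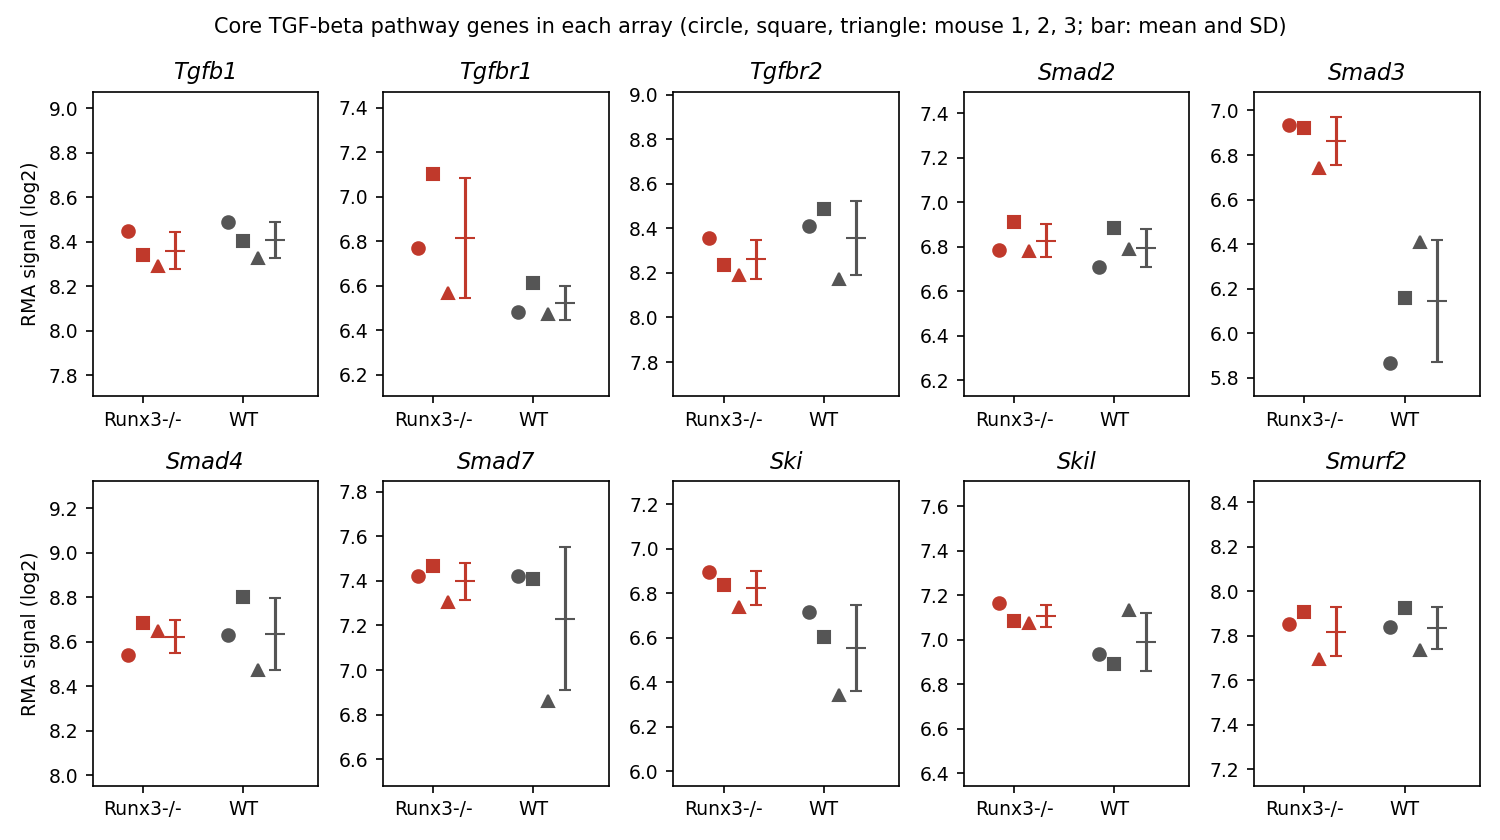
RMA signal (log2) of the 10 core pathway genes in each array, Runx3-/- left and WT right in each panel. Points are single mice and bars are mean and SD (n = 3), and every panel spans the same log2 range. The Smad3 values of 6.74 to 6.93 in Runx3-/- arrays lie above those of 5.87 to 6.41 in WT arrays, and most other panels show overlapping groups.

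Smad3, the receptor-regulated Smad that binds DNA directly, read 6.93, 6.92 and 6.74 in Runx3-/- arrays, against 5.87, 6.16 and 6.41 in WT arrays. Every Runx3-/- array was above every WT array, and the WT mice were the more spread (SD 0.11 in Runx3-/- and 0.27 in WT, n = 3 each). The difference was 0.72 ± 0.14 (SE, 95% interval 0.39 to 1.05), or 1.65-fold, with an adjusted p of 0.0160 by limma, and Smad3 ranked 537 of the 9924 genes by p. Smad3 is also among genes that the study selected from these same samples, which is not independent evidence of its direction. Apart from these samples, the paper names Smad3 among proliferation inhibitors that were higher without Runx3 in cells activated with interleukin 2 (IL-2). Those cells were CD8-TC, natural killer cells or both, and their arrays were not analysed here. The call was lost without Runx3-/- replicate 2 (difference 0.69, adjusted p 0.0601), with variances taken gene by gene without limma's moderation (adjusted p 0.129), and in a fit over every probe set of the array (adjusted p 0.0829), a setting chosen after the data were seen. The difference stayed positive in each of them.

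Smad2, the other receptor-regulated Smad, read 6.78, 6.91 and 6.78 in Runx3-/- arrays, against 6.71, 6.88 and 6.79 in WT arrays. The groups lay over each other, with a difference of 0.03 ± 0.09 (SE, 95% interval -0.18 to 0.25, limma adjusted p 0.857). The common partner Smad4 read 8.54, 8.69 and 8.65 in Runx3-/- arrays, against 8.63, 8.80 and 8.47 in WT arrays. Its difference was -0.01 ± 0.11 (SE, 95% interval -0.26 to 0.24, limma adjusted p 0.962), and its sign turned with the centring of the arrays. Of the 3 Smads that carry the signal, Smad3 was thus the 1 with a difference past the threshold, and the intervals of Smad2 and Smad4 lay inside a change of 1.5-fold (0.58 on the log2 scale) in either direction.

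The question of unequal change between the 2 receptor-regulated Smads was put to each array by itself. Levels of different probe sets cannot be compared, so only the change in their difference between the genotypes is read. Smad3 minus Smad2 was 0.15, 0.01 and -0.04 in Runx3-/- arrays and -0.84, -0.73 and -0.38 in WT arrays. All 3 Runx3-/- arrays lay above all 3 WT arrays, by 0.69 on average (exact permutation test over samples, two-sided, p = 0.1, the smallest that 3 against 3 arrays allow, and 0.2 adjusted over 4 pairs). This test could not reach 0.05.

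The receptor genes showed no difference past the threshold. Tgfbr1, the type I receptor kinase, read 6.77, 7.10 and 6.57 in Runx3-/- arrays, against 6.48, 6.61 and 6.47 in WT arrays. The highest Runx3-/- value came from replicate 2, and the lowest, from replicate 3, lay under the highest WT value. The difference was 0.29 ± 0.14 (SE, 95% interval -0.03 to 0.61, limma adjusted p 0.219), and it was 0.15 without Runx3-/- replicate 2. Tgfbr1 was the 1 core gene without a call whose interval reached 1.5-fold, so that a change of that size is not excluded.

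Tgfbr2, the ligand-binding type II receptor, read 8.36, 8.24 and 8.19 in Runx3-/- arrays, against 8.41, 8.49 and 8.17 in WT arrays. The lowest single value was that of a WT array, and the difference was -0.10 ± 0.11 (SE, 95% interval -0.35 to 0.16, limma adjusted p 0.628). Within each array, Tgfbr1 minus Tgfbr2 was -1.59, -1.14 and -1.62 in Runx3-/- arrays and -1.93, -1.88 and -1.70 in WT arrays. The 2 genotypes did not overlap in this measure either, with a shift of 0.39 (exact permutation p = 0.1, the smallest possible, and 0.2 adjusted over 4 pairs) that was 0.23 without Runx3-/- replicate 2.

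Tgfb1, the ligand gene that T cells themselves transcribe, read 8.45, 8.34 and 8.29 in Runx3-/- arrays, against 8.49, 8.41 and 8.33 in WT arrays. Its difference of -0.05 ± 0.09 (SE, 95% interval -0.26 to 0.17, limma adjusted p 0.784) was within the spread between mice. The array reads mRNA, and neither the latent protein nor its activation was measured.

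**Figure D2:**
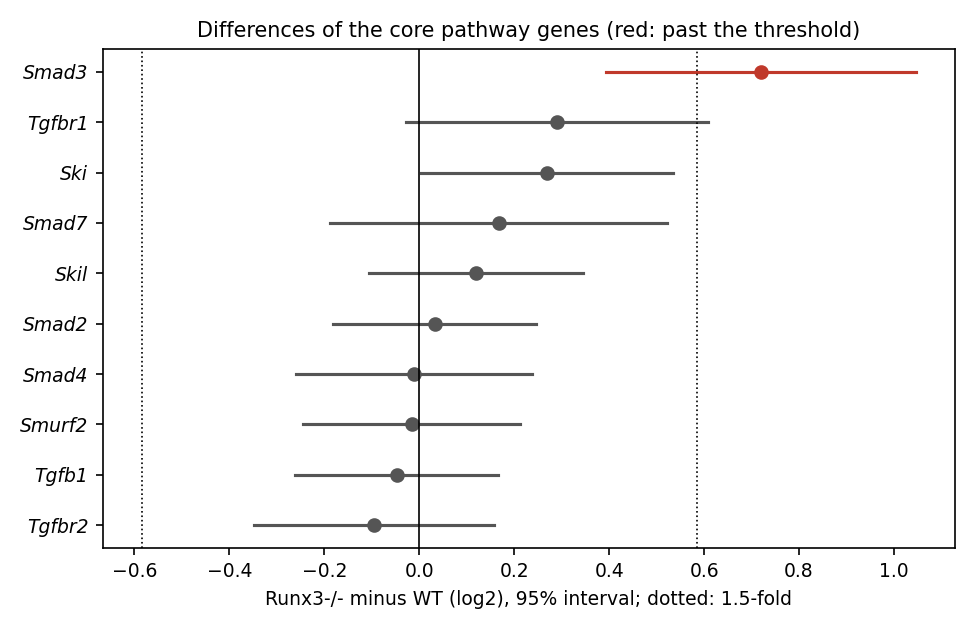
Difference (Runx3-/- minus WT, log2) of each core pathway gene with its 95% interval from limma, sorted by size, with dotted lines at 1.5-fold. Smad3 at 0.72 is the 1 gene past the threshold (red), and the intervals of 8 of the other 9 genes end inside the dotted lines.

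Among the nuclear corepressors, Ski, which binds Smads and recruits repressor complexes to their targets, read 6.90, 6.84 and 6.74 in Runx3-/- arrays, against 6.72, 6.60 and 6.34 in WT arrays. All 3 Runx3-/- arrays lay above all 3 WT arrays, the nearest of them by a narrow gap. The difference was 0.27 ± 0.12 (SE, 95% interval 0.00 to 0.54), and with an adjusted p of 0.177 by limma it did not pass the threshold under the main setting or any alternative. The difference was 0.16 without WT replicate 3. Skil, a close relative of Ski whose gene is itself a TGF-beta target, read 7.16, 7.08 and 7.07 in Runx3-/- arrays, against 6.94, 6.89 and 7.14 in WT arrays. The third WT array was as high as the Runx3-/- arrays, and the difference was 0.12 ± 0.10 (SE, 95% interval -0.11 to 0.35, limma adjusted p 0.477). Skil minus Ski within an array was 0.27, 0.25 and 0.33 in Runx3-/- arrays and 0.22, 0.29 and 0.79 in WT arrays, an overlap with a shift of -0.15 (exact permutation p = 0.8) that was 0.03 without WT replicate 3.

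Smad7, the inhibitory Smad that blocks the type I receptor and is induced by TGF-beta as a feedback, read 7.42, 7.47 and 7.31 in Runx3-/- arrays, against 7.42, 7.41 and 6.86 in WT arrays. A single low array, WT replicate 3, carried the difference of 0.17 ± 0.16 (SE, 95% interval -0.19 to 0.52, limma adjusted p 0.531), which was -0.02 without it. Smurf2, the ubiquitin ligase that Smad7 brings to the receptor, had 2 probe sets of its own. The brighter read 7.85, 7.91 and 7.70 in Runx3-/- arrays, against 7.84, 7.93 and 7.74 in WT arrays, with a difference of -0.02 ± 0.10 (SE, 95% interval -0.25 to 0.21, limma adjusted p 0.939). The dimmer read 6.23, 6.09 and 5.92 in Runx3-/- arrays and 6.37, 6.15 and 6.17 in WT arrays, a difference of -0.15 ± 0.10 (SE) that also lay within overlapping groups. Smad7 minus Smurf2 within an array was -0.43, -0.44 and -0.39 in Runx3-/- arrays and -0.42, -0.52 and -0.88 in WT arrays, with a shift of 0.18 (exact permutation p = 0.3, 0.4 adjusted over 4 pairs) that was 0.05 without WT replicate 3 and 0.28 without WT replicate 1.

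The core genes were not spread evenly over the mice. Runx3-/- replicate 3 was the lowest array of its genotype for 9 of the 10 core genes (Smad4 was the exception) and for 48.2% of all genes tested. WT replicate 3 was the lowest of its genotype for 7 of the 10 and for 41.5% of all genes tested, while for Smad3 and Skil it was the highest WT array. The low values of WT replicate 3 for Ski and Smad7 widened those differences, and its high Smad3 value narrowed that of Smad3.

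**Figure D3:**
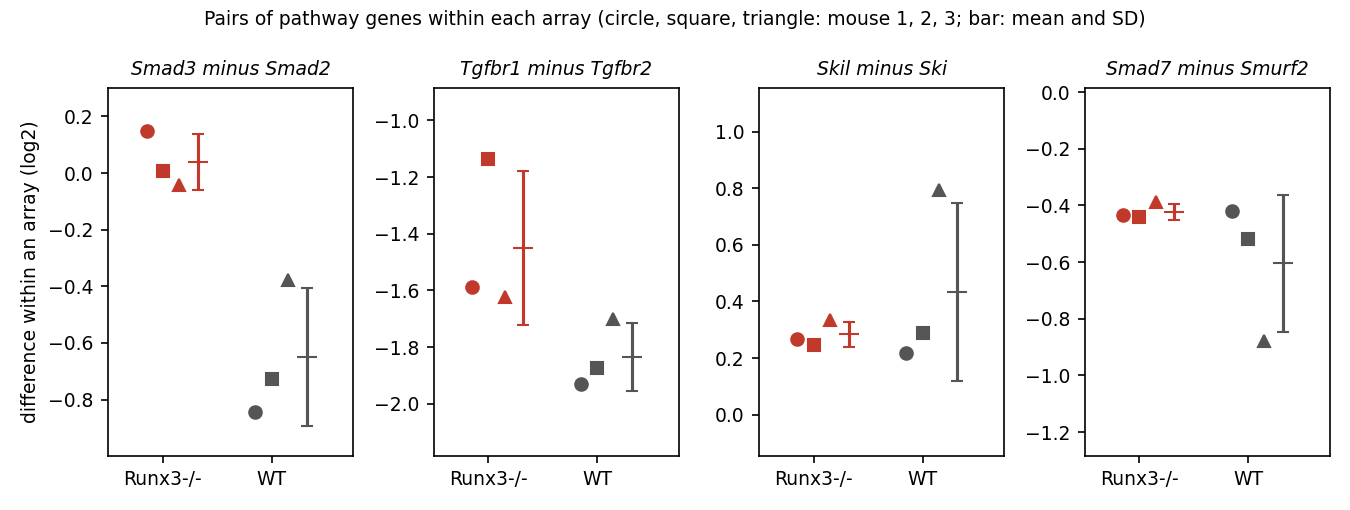
Difference between the paired genes within each array (log2), Runx3-/- left and WT right, with single mice as points and mean and SD (n = 3) as bars. All panels span the same range. Smad3 minus Smad2 and Tgfbr1 minus Tgfbr2 are higher in all 3 Runx3-/- arrays than in any WT array, and the other 2 pairs overlap.

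Because the mutated gene encodes a DNA-binding factor, the sequence just upstream of the annotated start is shown for the 3 core genes with the highest differences, Smad3, Tgfbr1 and Ski, and for Smurf2, whose difference was near 0. Of the 10 genes, 6 had windows kept from the RefSeq promoter table (build GRCm38.p6): Tgfb1, Tgfbr1 with 2 starts, Tgfbr2, Smad3, Ski and Smurf2. The other core genes were absent from it or were set aside by their chromosome, a filter not applied to the windows of all genes. The 250 bases before each start were searched on both strands for the RUNX consensus variants TGTGGT and TGCGGT and then TGTGGC and TGCGGC, and no 2 of them can match the same bases on the same strand. The windows lie at chr9:63757995-63758244 on the minus strand (Smad3), chr4:47352972-47353221 on the plus strand (Tgfbr1, the upstream of its 2 starts), chr4:155222536-155222785 on the minus strand (Ski) and chr11:106920716-106920965 on the minus strand (Smurf2). Each is printed 5′ to 3′ along its gene, ending at the base before the start, with matches in capitals.
Smad3: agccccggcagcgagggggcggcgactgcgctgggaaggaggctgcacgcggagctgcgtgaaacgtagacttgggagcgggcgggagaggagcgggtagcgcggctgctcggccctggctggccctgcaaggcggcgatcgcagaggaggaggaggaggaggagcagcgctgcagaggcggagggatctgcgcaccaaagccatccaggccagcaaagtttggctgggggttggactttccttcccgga
Tgfbr1: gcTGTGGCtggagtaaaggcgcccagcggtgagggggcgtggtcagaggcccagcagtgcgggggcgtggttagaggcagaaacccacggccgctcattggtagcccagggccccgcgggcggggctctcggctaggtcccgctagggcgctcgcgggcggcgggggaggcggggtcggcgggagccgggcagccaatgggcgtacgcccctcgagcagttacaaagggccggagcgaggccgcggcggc
Ski: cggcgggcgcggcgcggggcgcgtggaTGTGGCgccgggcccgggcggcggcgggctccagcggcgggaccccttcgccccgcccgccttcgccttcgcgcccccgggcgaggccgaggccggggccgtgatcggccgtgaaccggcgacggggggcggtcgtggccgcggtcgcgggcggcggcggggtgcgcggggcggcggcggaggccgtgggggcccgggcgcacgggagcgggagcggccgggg
Smurf2: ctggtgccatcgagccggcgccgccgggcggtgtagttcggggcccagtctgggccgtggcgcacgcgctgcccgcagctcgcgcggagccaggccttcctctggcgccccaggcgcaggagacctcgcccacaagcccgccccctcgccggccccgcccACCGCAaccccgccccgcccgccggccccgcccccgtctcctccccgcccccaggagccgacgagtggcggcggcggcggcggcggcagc

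The Smad3 window, that of the 1 called gene, held none of the 4 variants. Tgfbr1 held a single TGTGGC 248 to 243 bases before its start, and Ski a single TGTGGC 223 to 218 bases before. Smurf2 held TGCGGT on the opposite strand, seen above as its reverse complement, 90 to 85 bases before its start. The windows of Tgfb1, Tgfbr2 and the other Tgfbr1 start held none, which makes 3 of 7 windows with a match (42.9%), beside 38% of the 32851 windows of the same length in the table. The core gene share leaves out windows set aside by chromosome, whereas the share of all windows keeps that chromosome. By single variant, TGTGGC stood in 15.7% and TGCGGT in 5.1% of all windows. These matches describe letters in a short window and say nothing of binding, there or farther away. The paper places most Runx3 peaks of resting CD8-TC far from gene starts. It also counts Smad3 as Runx3-regulated in IL-2-activated cells, its term for responsive genes with a Runx3-bound region that holds a RUNX motif.

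The next question was whether the rest of the pathway differed. Of 63 further ligands and activators, receptors, Smad partners and repressors, 39 were tested, and limma called 2 higher and 1 lower in Runx3-/- cells (7.69%, beside 11.6% of all genes). The called genes were Pmepa1, Tgfb3 and Furin. The 6 tested of 12 other receptors and coreceptors and the 11 tested of 15 other Smads and Smad partners held no call.

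Pmepa1, a membrane protein that keeps receptor-regulated Smads from the receptor and is itself induced by TGF-beta, read 7.15, 6.97 and 7.33 in Runx3-/- arrays, against 6.64, 6.47 and 6.30 in WT arrays. The groups did not overlap, and the difference was 0.68 ± 0.13 (SE), or 1.60-fold, with a limma adjusted p of 0.0134. The other 16 repressors and turnover factors held no call, the nearest being the deubiquitinase gene Usp11 at 0.46 (limma adjusted p 0.0501), which passed under 8 alternatives. Tgif2, a Smad corepressor, and Ldlrad4, a relative of Pmepa1, each had a difference of 0.24 without a call, and that of Ldlrad4 was 0.14 without Runx3-/- replicate 2.

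Furin, the protease that cuts the TGF-beta precursor, read 5.39, 4.93 and 5.01 in Runx3-/- arrays, against 6.34, 6.15 and 6.05 in WT arrays. All Runx3-/- arrays were lower, with a difference of -1.07 ± 0.14 (SE), or 2.10-fold lower, and a limma adjusted p of 0.00245. Tgfb3, another ligand, read 3.50, 3.14 and 3.24 in Runx3-/- arrays, against 2.82, 2.66 and 2.79 in WT arrays. Of these values only that of Runx3-/- replicate 1 reached its array's median, so that Tgfb3 was tested through this array alone. Its difference of 0.54 ± 0.12 (SE, limma adjusted p 0.0223) lost its call without Runx3-/- replicate 3 (adjusted p 0.0555), without WT replicate 1 (0.0548) and without WT replicate 2 (0.0700). Of the 19 listed ligands and activators, 14 stayed below the array medians in all arrays, among them Tgfb2 and the activating integrin genes Itgb6 and Itgb8. Gdf11 and Nrros, at 0.23 and 0.24, and Itgav, at -0.15, were tested without a call. Single arrays moved them, since Gdf11 was 0.14 without Runx3-/- replicate 2, Nrros 0.06 without WT replicate 1 and Itgav 0.05 without Runx3-/- replicate 3.

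Among receptors, the activin type I receptor gene Acvr1b had a difference of 0.27 (limma adjusted p 0.0901), the BMP9 receptor gene Acvrl1 -0.27 and the BMP type II receptor gene Bmpr2 -0.26. Among Smad partners, the kinase gene Map3k7 (TAK1) had 0.23, its adaptor Tab2 -0.24 and the BMP-regulated Smad5 0.28. None of these 6 passed the threshold, and Bmpr2 was -0.12 without Runx3-/- replicate 3.

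**Figure D4:**
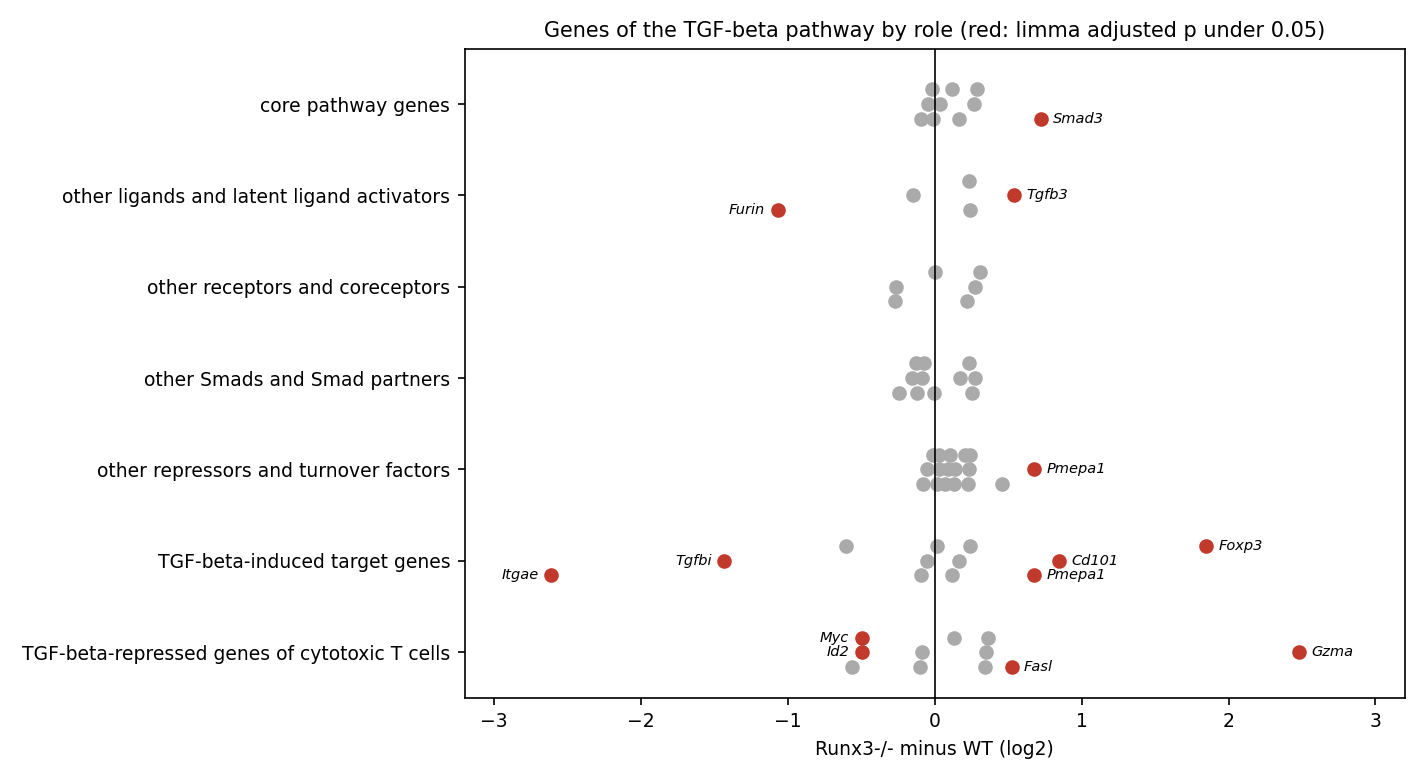
Difference (Runx3-/- minus WT, log2) of each tested pathway gene, 1 row per role, with genes past a limma adjusted p of 0.05 in red and named. Points are offset vertically for legibility, and Pmepa1, Ldlrad4, Tgif1, Smad7 and Skil each belong to 2 rows. Most components lie close to 0, while the target gene rows run from -2.61 (Itgae) to 2.48 (Gzma).

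Target genes of TGF-beta in T cells differed in both directions. Of 18 listed induced targets, 15 were analysed here and 12 tested, of which 3 were higher (Foxp3, Cd101 and Pmepa1), 2 lower (Itgae and Tgfbi) and 7 without a call, with a median difference of 0.07. Of 11 listed repressed genes, all tested, 2 were higher (Gzma and Fasl), 2 lower (Myc and Id2) and 7 without a call, with a median of 0.13. Counting each gene once and leaving out Smad7 and Skil as core genes, 11 of the 57 tested genes of the 6 lists were called (19.3%, beside 11.6% of all genes), 6 higher and 5 lower. Of the 6 higher, 4 (Tgfb3, Foxp3, Cd101 and Fasl) lay below the array medians in every WT array and were tested only through Runx3-/- arrays. A gene tested in this way could hardly be other than higher, so that their count supports no direction, and their differences are measured against a signal that may be background. By the study's rule of 1.5-fold and an unadjusted p under 0.05, 8 of the 57 were called, with Tgfb3, Fasl, Myc and Id2 lost and Id3 gained.

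Itgae, the CD103 integrin chain that TGF-beta induces on CD8 T cells, read 5.30, 5.08 and 5.61 in Runx3-/- arrays, against 8.05, 8.15 and 7.63 in WT arrays. It was lower in every Runx3-/- array, by -2.61 ± 0.17 (SE), or 6.12-fold, with a limma adjusted p of 9.91e-05. The paper names Itgae among the few genes earlier reported as affected by loss of Runx3 in developing CD8-TC. It also reports lower Itgae in its own Runx3-/- cells and counts Itgae as Runx3-regulated in resting natural killer cells too. Whether TGF-beta had a part in its difference was not tested. Tgfbi, a secreted matrix protein that macrophages also make, read 4.03, 4.83 and 4.60 in Runx3-/- arrays, against 5.76, 5.85 and 6.15 in WT arrays, a difference of -1.43 ± 0.20 (SE, limma adjusted p 0.00347). The macrophage markers were lower in the same arrays, as given above, and their part in the Tgfbi value was not tested.

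Foxp3, the regulatory T cell factor induced by TGF-beta, read 5.05, 5.00 and 5.43 in Runx3-/- arrays, against 3.39, 3.25 and 3.29 in WT arrays. The WT values lay below the array medians, so no fold is given, and the difference in signal was 1.85 ± 0.13 (SE, limma adjusted p 0.000104). Foxp3 is also on the list of CD4 and regulatory T cell markers, all 8 of which were higher in these arrays. Cd101, an inhibitory surface protein, read 4.01, 4.08 and 3.84 in Runx3-/- arrays, against 2.89, 3.15 and 3.35 in WT arrays, all below the array medians (difference in signal 0.85 ± 0.13 SE, limma adjusted p 0.00569). Smad7 and Skil, both feedback targets, were among the 7 without a call, as was the helix-loop-helix inhibitor gene Id3 at -0.60 (limma adjusted p 0.0707).

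Of the repressed genes, the granzyme gene Gzma read 7.94, 5.21 and 6.25 in Runx3-/- arrays, against 4.09, 3.78 and 4.08 in WT arrays. Every Runx3-/- array was higher, but they were spread widely (SD 1.38 in Runx3-/- and 0.18 in WT, n = 3 each), and the difference of 2.48 ± 0.56 (SE, limma adjusted p 0.0275) lost its call without Runx3-/- replicate 3 (adjusted p 0.0763), WT replicate 1 (0.0731) or WT replicate 2 (0.0698), and also with no filter on signal (0.0614) and with trended and robust variances (0.0609). Gzma is also a natural killer cell marker, a list of which 4 of 7 tested genes were lower. Fasl, the death ligand gene, read 3.75, 3.73 and 3.62 in Runx3-/- arrays, against 3.11, 3.16 and 3.26 in WT arrays, again below the array medians, a difference in signal of 0.52 ± 0.09 (SE, limma adjusted p 0.0101).

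Myc, the growth-promoting transcription factor that TGF-beta represses through Smad complexes, read 7.33, 7.20 and 7.27 in Runx3-/- arrays, against 7.83, 7.84 and 7.62 in WT arrays. Its difference was -0.50 ± 0.10 (SE, limma adjusted p 0.0161). Id2, a regulator of effector CD8 T cells, read 8.57, 8.33 and 8.55 in Runx3-/- arrays, against 9.06, 9.01 and 8.86 in WT arrays, a difference of -0.50 ± 0.11 (SE, limma adjusted p 0.0223). Both genes were lower in all Runx3-/- arrays, and both calls were lost in turn without Runx3-/- replicate 2 (adjusted p 0.0603 for Myc and 0.0724 for Id2), Runx3-/- replicate 3 (0.0507 and 0.0518), WT replicate 1 (0.0650 and 0.0843) or WT replicate 2 (0.0573 and 0.0666). The effector cytokine gene Ifng, the granzyme gene Gzmb and the T-box factor gene Eomes, at 0.36, 0.35 and -0.56, did not pass the threshold. The WT values of Ifng and Gzmb also lay below the array medians, so that both were tested only through Runx3-/- arrays. Ifng passed without Runx3-/- replicate 2 (limma adjusted p 0.0474), and Eomes was -0.16 without WT replicate 3.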

How the data were processed

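Total RNA of resting CD8-TC from 3 Runx3-/- and 3 WT mice was hybridised to 6 Affymetrix arrays. The deposited log2 values were normalized by the authors by RMA with a GC correction in Partek Genomics Suite, with version and array build not given in the sources used here. Array maxima of 13.3 to 13.5 showed the log2 scale. Of 35399 probe sets, 21789 named a single gene in the platform annotation, 1621 several and 11989 none. A gene was tested when its brightest single-gene probe set reached the array median in at least 1 array, which left 9924 genes. Differences were fitted with limma (version 3.58.1, R 4.3.3; lmFit, eBayes, two-sided) without covariates and adjusted by Benjamini-Hochberg over all genes at a threshold of 0.05. The methods state 1.5-fold and p under 0.05, applied as an alternative with the same filter on signal. Gene pairs within an array were compared by exact permutation over samples. The fit was tested on simulated data. Groups came from the sample titles, and the number of arrays limits the precision. Alternatives changed the filter, scaling, probe set rule, variance model, array weights and block, and left out each array.

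Named were the 10 core genes with every probe set, Runx3, and in each further list the genes past the threshold and otherwise up to 3 with the lowest p, and marker lists are given as counts and sums. Members and lists were chosen with earlier results of these data known. Some listed genes are not reported here.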

Additional observations from a re-analysis of the deposited data

How the results depend on the processing

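The alternatives kept Smad3 as the 1 core gene called, except that 0 core genes were called without moderation of the variances, without Runx3-/- replicate 2, and in the fit over all probe sets, chosen after seeing the data. Leaving out single arrays thus gave 0 to 1. The Smad3 difference ran from 0.58 to 0.85. Without moderation 178 genes in all and 3 of the wider pathway were called, against 1154 and 11, and leaving out single arrays gave 619 to 920 and 7 to 11, with fewer samples in each fit. Of the 11 wider pathway genes called, those still called without moderation were Itgae and Foxp3, joined by Tab2. Median centring moved Smurf2 to 0.00372 and Smad4 to 0.00836, both without a call. Leaving out single arrays gave differences of -0.018 to 0.262 for Smad7, -0.011 to 0.077 for Smad2, -0.064 to 0.046 for Smurf2, -0.092 to 0.072 for Smad4, -0.267 to 0.050 for Itgav and -0.012 to 0.278 for Runx3, none called, and a shift of -0.257 to 0.030 for Skil minus Ski. The values showed no pairing by replicate number, since deviations of same-numbered samples correlated at 0.177, 0.032 and -0.00014 and 2 of 6 samples correlated best with their own number. With so few arrays, such correlations cannot exclude a pairing in the design. With the replicate number as a block, 1084 genes, 1 core gene and 12 wider pathway genes were called. The core genes' standard errors of 0.09 to 0.16 limit what 3 against 3 arrays resolve.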
